A study of Mus musculus with 6 samples.

Results

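The genes described here encode the proteasome of 3T3-F442A cells, a mouse preadipocyte line that the labels call an adipocyte line. Members are the rows of the deposited expression table whose gene name starts with Psma to Psmg followed by a digit. This rule took 48 of 31097 rows. Of these, 44 are genes of the proteasome, its assembly chaperones, activators and inhibitor, 3 are processed pseudogenes (Psmb5-ps, Psmb6-ps and Psmb7-ps2), and 1, Psmc3ip, encodes a partner of a proteasome subunit that acts in meiotic recombination. Psmd8, Psmd9, Psmd11 and Psme3 were not analysed here.

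RNA from 3 WT libraries of the parental line (SWELL1 intact) was compared with RNA from 3 SWELL1 KO libraries, in which that gene, Lrrc8a, which encodes part of the volume-regulated anion channel, had been targeted with CRISPR/Cas9. All cells were grown in RPMI with 10% FBS. Nothing in the labels tells whether the libraries of a group came from separate cultures or whether the KO cells are 1 clone, and D3, part of the KO sample names, is not explained. Genotype and a difference between clones or cultures therefore cannot be told apart, and each p-value reflects only how far these libraries scatter.

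The proteasome degrades proteins that carry ubiquitin chains. Its 20S core is a barrel of outer alpha rings, which form the gate, and inner beta rings, which hold the proteolytic sites. The 19S cap binds ubiquitin, removes it and unfolds the substrate with a ring of ATPases. Psmb5, Psmb6 and Psmb7 carry the constitutive active sites. In immune cells, and in other cells after interferon, Psmb8, Psmb9 and Psmb10 replace them during assembly and form the immunoproteasome, which favours peptides for MHC class I.

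Levels are in FPKM, which counts fragments relative to transcript length and library size, so levels of different genes can be set side by side. Estimated depth was 17.15 M to 20.84 M mapped fragments (M, mega) in WT and 18.4 M to 25.96 M in KO. The Lrrc8a row also holds Nup188 and Phyhd1 (27.3 to 28.8 FPKM in KO libraries and 32.5 to 35.0 in WT libraries) and does not check the knockout. The 8 adipocyte markers summed to 142.7 to 202 FPKM in the WT libraries and 9.03 to 10.4 in those of KO. The WT sum was nearly all Fabp4. Most of the KO sum was Lipe, which overlapped between groups (6.17 to 7.63 FPKM in WT, 5.64 to 6.70 in KO). Adipoq was under 2 FPKM in every library and Lep was at 0. All 6 fibroblast markers were present in every library; 4 were lower in KO and 2 higher, and they summed to 3931 to 4573 FPKM in WT against 3315 to 3468 in KO. The sums of 3 endothelium markers (0.457 to 0.659 in WT, 2.04 to 2.45 in KO) and 3 epithelium markers (0 to 0.0449 in WT, 1.17 to 1.49 in KO) were low and higher in KO. The epithelium rise was Krt8 alone, with Epcam at 0 in every library and Krt18 overlapping between groups. The endothelium rise was mostly Vwf, and Pecam1 overlapped between groups. The numbered clone AC166252.2 took 16.7% to 23.7% of the FPKM sum in KO libraries and at most 2.1% in WT. The part of these differences in the results was not tested.

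The proteasome genes did not move in 1 direction. Of the 44 genes, 42 passed the filter on low values (a mean of at least 0.5 FPKM) and were tested. In KO, 15 were higher and 17 lower, and 10 did not pass (limma on log2(FPKM + 0.5), adjusted p under 0.05 over all rows). Over all 10515 tested rows, 65.2% passed, 28.5% as higher and 36.7% as lower, so a call is common among all rows and does not by itself set a proteasome gene apart. The counts given below for each role are to be read beside the same shares. The median log2 fold change was -0.01 for the proteasome genes and -0.07 for all rows. Libraries of the groups did not overlap for 33 of the 42 genes, against 71.8% of all tested rows. The changes were small: the median size of the log2 fold change was 0.24 for the proteasome genes and 0.44 for all rows. These groups of genes were not matched for level, and the part of level in this difference was not tested. Both genes past 2-fold (17.0% of all rows passed the test with at least this change) had libraries at 0.

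The split between higher and lower calls depended on the scaling. Median-ratio scaling gave 18 higher and 14 lower, and quantile normalization 22 higher and 8 lower, against 43.7% of all calls higher as deposited, 48.8% and 50.4% with these scalings. A set of 19 called genes kept direction and call in every alternative run, 13 of them higher (Psma2, Psma5, Psmc3, Psmc5, Psmc6, Psmd1, Psmd4, Psmd6, Psme1, Psme4, Psmg1, Psmg2 and Psmg4) and 6 lower (Psma1, Psma7, Psmd3, Psmd13, Psmf1 and Psmg3). The share of all tested rows that did so was not computed, so the count does not set proteasome genes apart. Both scalings moved the median log2 fold change of the proteasome genes up, from -0.01 to 0.05 and 0.2. The lean to higher genes in this set therefore depends on which alternatives were run.

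**Figure D1:**
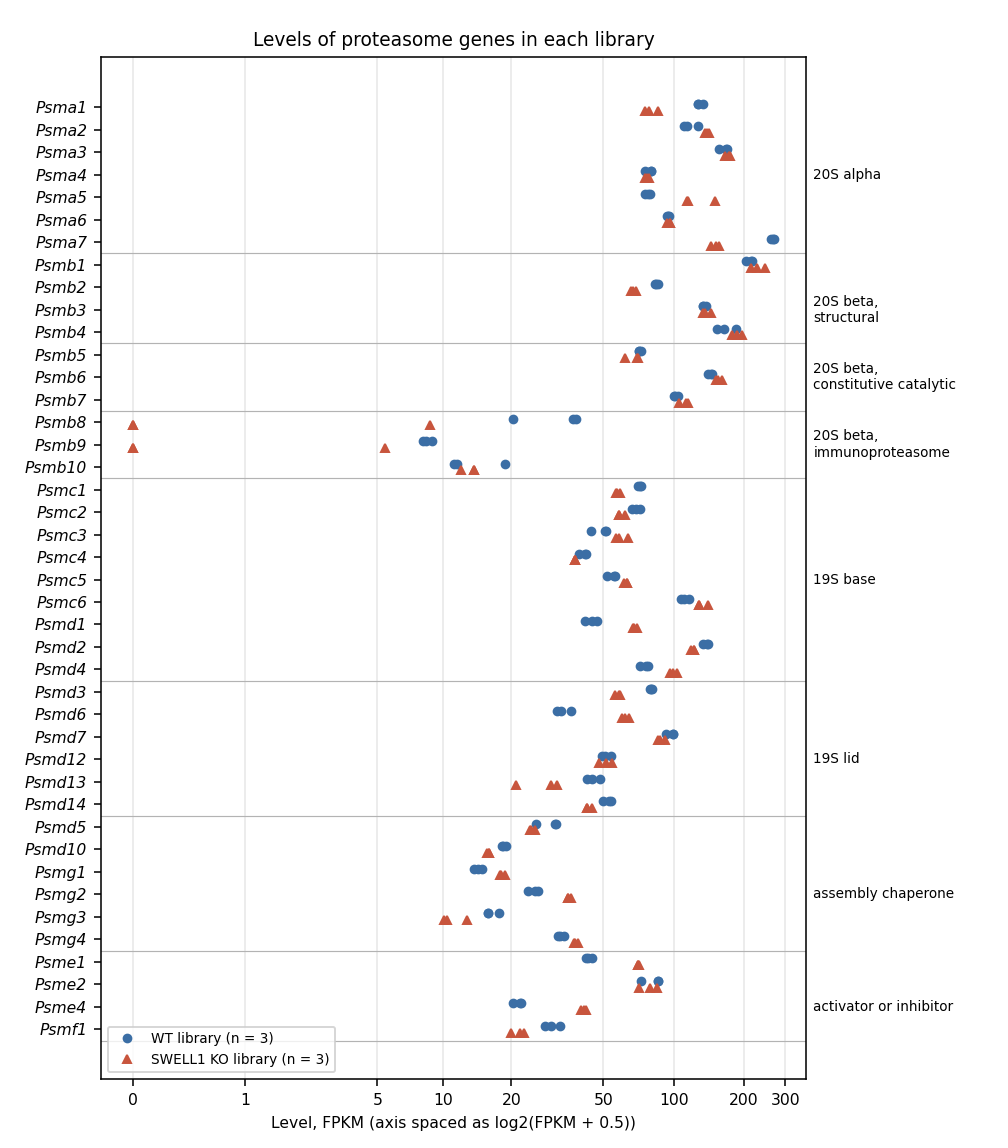
Level of each of the 42 tested proteasome genes in the 6 libraries, by role. The horizontal axis gives FPKM, spaced as log2(FPKM + 0.5); circles are WT and triangles SWELL1 KO libraries. Psmb8 and Psmb9 are the only genes with libraries at 0, and Psma7 is the highest gene in WT.

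In the alpha ring, subunits of 1 complex changed in opposite directions. Psma7 stood at 266, 269 and 261 FPKM in the WT libraries 1 to 3 and 157, 152 and 145 in KO (log2 fold change -0.81, SE 0.04, adjusted p = 2.01e-05). Psma1 stood at 127, 133 and 128 FPKM in the WT libraries and 75.8, 78.5 and 85.4 in those of KO (log2 fold change -0.69, SE 0.05, adjusted p = 0.000106). Every KO library lay below every WT library for both genes. Psma5 went the other way, from 75.7, 79.4 and 77.8 FPKM to 115, 151 and 114 (log2 fold change 0.69, SE 0.12, adjusted p = 0.00278), with KO replicate 2 well above the other KO libraries. Psma2 rose from 117.5 ± 8.79 to 139.2 ± 2.54 FPKM (mean ± SD, n = 3 libraries here and below).

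The other alpha genes were close to level. Psma6 was at 93.5, 95.4 and 94.7 FPKM in the WT libraries and 96.7, 96.5 and 93.7 in those of KO, with overlapping groups (adjusted p = 0.661). Psma3 (164.5 ± 6.71 and 170.6 ± 3.99) and Psma4 (78.5 ± 2.62 and 77.0 ± 1.34) did not pass either; under quantile normalization Psma3, Psma4 and Psma6 were called higher in KO (adjusted p between 0.000958 and 0.00203), Psma6 also under median-ratio scaling (adjusted p = 0.0495). The highest of the 7 levels was 3.36 to 3.53 times the lowest in WT libraries and 2.12 to 2.30 times in KO libraries. Psma7, which fell, was the highest alpha gene in every WT library, and Psma3 in every KO library. The lower ratio in KO thus rests on Psma7 and does not describe the other alpha genes. In the lid this ratio was 2.738 to 3.017 in WT and 2.792 to 4.075 in KO. In the base, without Psmd1, it was 3.305 to 3.42 in WT and 3.391 to 3.729 in KO. The summed level of the 7 genes was 927.7 ± 12.5 FPKM in the WT libraries and 839.7 ± 25.8 in those of KO. Psma8, the germ cell form of an alpha subunit, was listed at 0 in all libraries.

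Among the beta subunits without an active site, Psmb2 alone passed. It was at 83.6, 84.5 and 85.7 FPKM in the WT libraries and 67.0, 65.9 and 69.2 in those of KO (log2 fold change -0.33, SE 0.03, adjusted p = 0.000349), with no overlap; with quantile normalization it no longer passed (adjusted p = 0.0829, log2 fold change -0.09). Psmb3 was at 134, 138 and 134 FPKM in the WT libraries and 144, 137 and 133 in those of KO (adjusted p = 0.4997). Psmb4 was at 153, 164 and 185 FPKM in the WT libraries and 196, 178 and 186 in those of KO (adjusted p = 0.121). The groups of both overlapped; without WT replicate 3, Psmb4 passed as higher in KO (adjusted p = 0.0239). Psmb1 was at 212 ± 6.78 and 228.5 ± 15.5 (adjusted p = 0.154). Psmb1, Psmb3 and Psmb4 were called higher under quantile normalization (adjusted p between 0.00515 and 0.00592), Psmb1 and Psmb4 also under median-ratio scaling (adjusted p = 0.0456 and 0.0412).

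The constitutive catalytic genes differed by 1.06- to 1.09-fold between groups. Psmb5, which carries the chymotrypsin-like site, was at 71.3, 71.2 and 72.2 FPKM in the WT libraries and 69.7, 62.0 and 70.4 in those of KO (adjusted p = 0.209); its row also carries the microRNA gene Mir686. Psmb6, which carries the caspase-like site, was at 141, 145 and 147 FPKM in the WT libraries and 161, 152 and 155 in those of KO (log2 fold change 0.12, SE 0.04, adjusted p = 0.0305). Psmb7, which carries the trypsin-like site, was at 101, 102 and 105 FPKM in the WT libraries and 115, 113 and 106 in those of KO (log2 fold change 0.12, SE 0.04, adjusted p = 0.04996). For Psmb6 and Psmb7 all KO libraries lay above all WT libraries, by a small margin. For Psmb5 all KO libraries lay below all WT libraries, also by a small margin. Psmb6 lost its call when WT replicate 1 or 2 or KO replicate 1 or 3 was left out (adjusted p between 0.057 and 0.0838) and with the replicate number as a block (adjusted p = 0.0813). Psmb7 lost its call when WT replicate 1, 2 or 3 or KO replicate 1 or 2 was left out (adjusted p between 0.0669 and 0.127), in that block fit (adjusted p = 0.113), and with a pseudocount of 1, no filter or a robust fit (adjusted p between 0.0502 and 0.0577).

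The immunoproteasome genes did not share a pattern. Psmb8, which replaces Psmb5, lies on chromosome 17 (GRCm38, 34197721 to 34201454, plus strand), and was at 20.3, 36.8 and 38.0 FPKM in the WT libraries and 0, 0 and 8.69 in those of KO (adjusted p = 0.0165). Psmb9, which replaces Psmb6, lies near it (34181987 to 34187764, minus strand), and was at 8.33, 8.86 and 8.15 FPKM in the WT libraries and 0, 5.41 and 0 in those of KO (adjusted p = 0.0396). Psmb10, which replaces Psmb7, lies on chromosome 8 (105935735 to 105938444, minus strand), and was at 11.2, 18.8 and 11.6 FPKM in the WT libraries and 13.7, 13.7 and 12.0 in those of KO (adjusted p = 0.884). Each KO library of Psmb8 and Psmb9 lay below each WT library, whereas the groups of Psmb10 overlapped, with WT replicate 2 above all others.

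The zeros of Psmb8 and Psmb9 fall partly in different libraries: both are at 0 in KO replicate 1, KO replicate 3 has a value for Psmb8 and none for Psmb9, and KO replicate 2 the reverse. An exact 0 is not a safe zero in this table. Of 8117 rows reaching 5 FPKM in some library, 259 had both zeros and values within the same group. No fold change is therefore given for these genes. Psmb8 lost its call when WT replicate 2 or 3 or KO replicate 1 or 2 was left out (adjusted p between 0.0523 and 0.054). Psmb9 lost its call when WT replicate 1, 2 or 3 or KO replicate 1 or 3 was left out (adjusted p between 0.0933 and 0.115), with a pseudocount of 0.1, with no filter and in the robust fit (adjusted p between 0.0506 and 0.0614).

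Psmb8, Psmb9 and Psmb10 together made up 11.3%, 16.9% and 15.1% of the summed FPKM of the 6 catalytic genes in WT replicates 1, 2 and 3, and 3.81%, 5.53% and 5.88% in KO. The groups did not overlap; no test was run on this share. Of the Psmb10 and Psmb7 pair, which has no library at 0, Psmb10 made up 10.0%, 15.6% and 9.93% in WT and 10.6%, 10.8% and 10.2% in KO, where the groups overlapped. The lower share rests on Psmb8 and Psmb9, the genes with libraries at 0. Leukocytes express the immunoproteasome at high levels. Of 8 leukocyte markers 7 had a row, with a summed level of 1.30 to 1.64 FPKM in the WT libraries and 0.128 to 0.343 in those of KO. Nearly all of it was Lyz2, and Ptprc, which encodes the common leukocyte antigen CD45, was at 0 in WT and at most 0.0204 FPKM in KO. The part of such cells in the result was not tested, and in bulk RNA fewer cells of a type and less RNA per cell cannot be told apart.

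**Figure D2:**
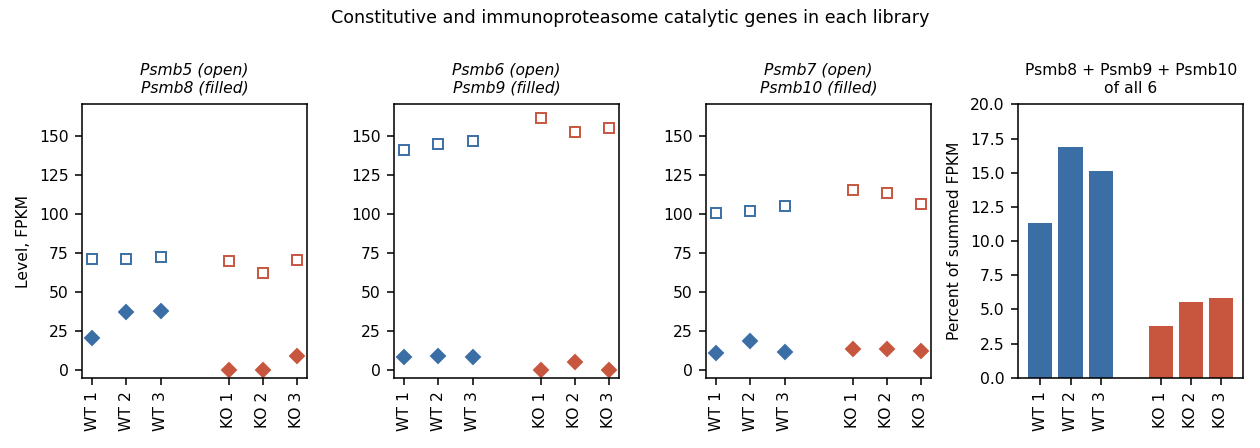
Levels in FPKM of each constitutive catalytic gene (open squares) and its immunoproteasome counterpart (filled diamonds) in the 6 libraries, and, as bars, the percent of the summed FPKM of all 6 genes held by Psmb8, Psmb9 and Psmb10. Psmb8 and Psmb9 each have 2 KO libraries at 0, Psmb10 overlaps between groups, and the share is 11.3% to 16.9% in WT and 3.81% to 5.88% in KO.

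Promoter sequences are shown for the catalytic pairs whose immunoproteasome gene was lower in KO and for the activator genes that were higher. The windows run from 150 bases before the RefSeq start site to its base 20, 5′ to 3′ on the gene's strand (RefSeq, GRCm38.p6). The windows of Psmb8, Psmb9 and Psme1 lie wholly inside the GENCODE spans of these genes, downstream of their GENCODE starts. For these genes the sequence before the GENCODE start was not searched. Capitals mark matches, on either strand, to the antioxidant element core TGACNNNGC bound by NFE2L1, the inducer of proteasome genes, to the NF-Y box CCAAT, to the interferon-stimulated response element core (GAAA, any 2 bases, GAAA), and to the gamma-activated site core TTCNNNGAA. The windows are chr17:34198045-34198214 (plus strand) for Psmb8, chr14:54617976-54618145 (minus) for Psmb5, chr17:34187311-34187480 (minus) for Psmb9, chr11:70525207-70525376 (plus) for Psmb6, chr14:55578344-55578513 (plus) for Psme1 and chr11:30771625-30771794 (plus) for Psme4.
Psmb8: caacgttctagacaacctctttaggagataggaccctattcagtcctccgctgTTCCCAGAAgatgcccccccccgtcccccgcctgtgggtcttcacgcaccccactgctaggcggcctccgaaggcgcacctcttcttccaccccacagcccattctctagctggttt
Psmb5: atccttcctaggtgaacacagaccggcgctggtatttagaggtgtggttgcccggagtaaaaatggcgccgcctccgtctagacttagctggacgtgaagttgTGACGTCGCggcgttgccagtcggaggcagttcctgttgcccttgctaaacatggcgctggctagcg
Psmb9: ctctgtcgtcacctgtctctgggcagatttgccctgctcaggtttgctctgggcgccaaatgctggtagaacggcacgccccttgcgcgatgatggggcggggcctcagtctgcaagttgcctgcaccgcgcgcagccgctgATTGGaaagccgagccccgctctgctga
Psmb6: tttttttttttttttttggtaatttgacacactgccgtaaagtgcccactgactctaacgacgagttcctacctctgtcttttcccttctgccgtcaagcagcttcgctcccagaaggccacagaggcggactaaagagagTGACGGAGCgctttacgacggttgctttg
Psme1: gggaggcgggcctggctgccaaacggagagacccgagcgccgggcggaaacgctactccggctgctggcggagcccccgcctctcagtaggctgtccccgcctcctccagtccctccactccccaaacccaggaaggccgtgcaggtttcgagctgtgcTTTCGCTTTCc
Psme4: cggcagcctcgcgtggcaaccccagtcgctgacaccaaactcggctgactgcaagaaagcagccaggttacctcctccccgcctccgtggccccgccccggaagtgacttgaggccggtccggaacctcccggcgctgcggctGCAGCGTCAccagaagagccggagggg

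In these windows the constitutive genes Psmb5 and Psmb6 and the activator gene Psme4 hold the antioxidant element core, Psmb8 holds a gamma-activated site core that starts 97 bases before its start site, and Psme1 holds the interferon-stimulated core just after its start site. RefSeq promoters of 250 bases before to 50 after the start were given for 36 of the 44 genes. Of these, 5 (13.9%) held the antioxidant core (Psmb5, Psmb6, Psmc6, Psmd12 and Psme4), against 14.0% of the 27025 genes with a promoter. The NF-Y box was in 13 (36.1%, against 41.1%), the gamma-activated core in 3 (8.33%, against 9.55%) and the interferon-stimulated core in 4 (11.1%, against 3.99%), namely Psmb3, Psmd4, Psme1 and Psmg4. Matching letters are a description and not a binding site.

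In the 19S base every gene passed as deposited, in both directions, against 65.2% of all tested rows. Under quantile normalization none of the base genes that fell kept its call. Psmd1, the scaffold subunit, was at 41.8, 44.8 and 46.8 FPKM in the WT libraries and 67.0, 67.7 and 69.7 in those of KO (log2 fold change 0.61, SE 0.05, adjusted p = 0.000143), but its row also holds Armc9, and the genes cannot be told apart. Psmd4, a ubiquitin receptor, was at 71.9, 76.2 and 78.02 FPKM in the WT libraries and 96.9, 99.0 and 104 in those of KO (log2 fold change 0.40, SE 0.05, adjusted p = 0.000547), without overlap. The ATPase gene Psmc4 was at 39.2, 41.8 and 41.9 FPKM in the WT libraries and 37.8, 37.8 and 37.6 in those of KO (log2 fold change -0.12, SE 0.04, adjusted p = 0.0436). This smallest change of the base lost its call when WT replicate 2 or 3 or KO replicate 1, 2 or 3 was left out (adjusted p between 0.0861 and 0.116), in the block fit (adjusted p = 0.0851) and under median-ratio scaling (adjusted p = 0.269), and turned positive under quantile normalization (log2 fold change 0.07).

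The 6 ATPases, which form a single ring, split evenly: Psmc3, Psmc5 and Psmc6 rose and Psmc1, Psmc2 and Psmc4 fell. Psmc3 went from 48.8 ± 3.92 to 59.7 ± 3.65 FPKM, Psmc5 from 54.4 ± 2.33 to 62.6 ± 1.16, and Psmc6 from 111.8 ± 4.13 to 132.5 ± 7.42. Psmc1 went from 71.5 ± 1.13 to 57.7 ± 1.25 and Psmc2 from 69.1 ± 3.01 to 59.7 ± 2.07, and the other scaffold gene, Psmd2, from 137.5 ± 3.06 to 121.3 ± 2.09. Under quantile normalization Psmc1 lost its call and Psmc2 and Psmd2 were no longer lower (log2 fold changes -0.08, 0.01 and 0.04).

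In the lid, 4 of 6 genes fell and 1 rose. Psmd6 was at 31.6, 36.2 and 32.9 FPKM in the WT libraries and 61.6, 64.4 and 60.0 in those of KO, 1.85-fold higher (log2 fold change 0.88, SE 0.06, adjusted p = 7.1e-05). Psmd13 was at 48.4, 44.5 and 42.6 FPKM in the WT libraries and 21.0, 31.4 and 29.7 in those of KO, 1.65-fold lower (log2 fold change -0.73, SE 0.16, adjusted p = 0.00777). Both showed no overlap; Psmd13 overlaps Sirt3 in the annotation, and KO replicate 1 was the lowest. Psmd12 was at 49.2, 50.9 and 53.7 FPKM in the WT libraries and 48.0, 51.2 and 54.7 in those of KO (adjusted p = 0.9996), the flattest of all proteasome genes, and was called higher under quantile normalization (adjusted p = 0.0305, log2 fold change 0.19). Psmd3 fell from 79.8 ± 0.69 to 57.9 ± 1.76 FPKM, and Psmd14, the deubiquitinase of the lid, from 52.2 ± 2.19 to 43.2 ± 1.21. Psmd14 lost its call under quantile normalization (adjusted p = 0.116). Psmd7, its partner, was at 97.1 ± 3.46 and 88.4 ± 3.16 FPKM (adjusted p = 0.0372). It lost its call when WT replicate 2 or 3 or KO replicate 1 or 2 was left out (adjusted p between 0.0944 and 0.104) and under median-ratio scaling (adjusted p = 0.199), and its sign under quantile normalization (log2 fold change 0.10).

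Summed over genes, the levels as deposited differed little between groups. The 14 constitutive core genes added up to 1845 ± 24.6 FPKM in the WT libraries and 1795 ± 36.02 in those of KO, a ratio of 0.973. The 14 genes of the 19S cap, without the shared Psmd1 row, added up to 968.5 ± 25.7 and 961.2 ± 11.3, a ratio of 0.9925. No test was run on these sums, and they were not computed under the other scalings. Median-ratio scaling and quantile normalization moved the median log2 fold change of the proteasome genes from -0.01 to 0.05 and 0.2, so the sums depend on the scaling.

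**Figure D3:**
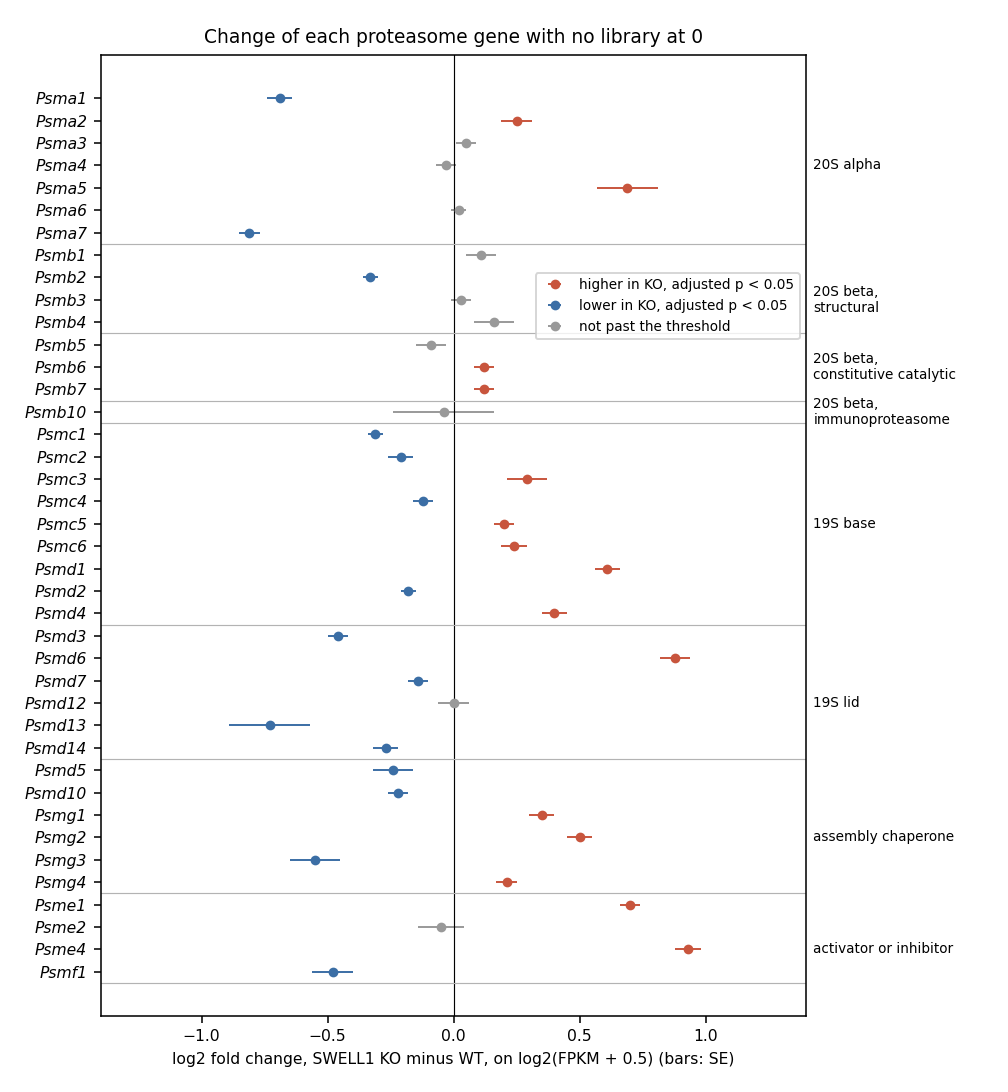
Change of each tested proteasome gene with no library at 0, as the log2 fold change of SWELL1 KO minus WT on log2(FPKM + 0.5), with its SE and n = 3 libraries per group; colours give the call. Rises and falls stand side by side within the alpha ring, the base and the lid, from -0.81 for Psma7 to 0.93 for Psme4.

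Chaperones of assembly also split, 3 higher and 3 lower. Psmg2, which pairs with Psmg1 to build the alpha ring, was at 23.6, 26.2 and 25.2 FPKM in the WT libraries and 36.2, 35.3 and 35.1 in those of KO (log2 fold change 0.50, SE 0.05, adjusted p = 0.000288). Psmg1 rose with it, from 14.2 ± 0.63 to 18.2 ± 0.54. Psmg3 and Psmg4 form the other such pair and went apart. Psmg3 was at 15.8, 15.8 and 17.7 FPKM in the WT libraries and 10.1, 12.8 and 10.4 in those of KO (log2 fold change -0.55, SE 0.10, adjusted p = 0.00409). Psmg4 was at 32.6, 32.0 and 33.8 FPKM in the WT libraries and 38.9, 37.8 and 37.3 in those of KO (log2 fold change 0.21, SE 0.04, adjusted p = 0.00406). None of these groups overlapped. The base chaperones Psmd10 (18.5 ± 0.44 and 15.8 ± 0.15 FPKM) and Psmd5 (29.2 ± 3.18 and 24.6 ± 0.66, adjusted p = 0.0473) were lower. Psmd10 lost its call under quantile normalization (adjusted p = 0.0585). Psmd5 lost its call when WT replicate 2 or 3 or KO replicate 1, 2 or 3 was left out (adjusted p between 0.0809 and 0.134), under both scalings (adjusted p = 0.101 and 0.324) and with no filter (adjusted p = 0.0658).

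The largest increase of all was that of an activator gene. Psme4 encodes PA200, a nuclear activator that caps the core in place of the 19S, and was at 20.3, 22.0 and 21.8 FPKM in the WT libraries and 40.2, 41.9 and 41.3 in those of KO, 1.92-fold higher (log2 fold change 0.93, SE 0.05, adjusted p = 2.22e-05). Psme1 and Psme2 encode the subunits of PA28, the interferon-inducible activator linked to the immunoproteasome. Psme1 was at 43.02, 44.6 and 41.9 FPKM in the WT libraries and 71.0, 70.3 and 70.2 in those of KO, 1.63-fold higher (log2 fold change 0.70, SE 0.04, adjusted p = 2.48e-05). Psme2 was at 72.8, 86.0 and 85.8 FPKM in the WT libraries and 79.6, 71.3 and 84.5 in those of KO, with overlap (adjusted p = 0.633). The ratio of Psme1 to Psme2 was 0.591, 0.519 and 0.489 in WT and 0.892, 0.987 and 0.830 in KO. Psme1 overlaps Emc9 in the annotation. Psmf1, which encodes the inhibitor PI31, fell from 30.1 ± 2.31 to 21.4 ± 1.42 FPKM (log2 fold change -0.48, SE 0.08, adjusted p = 0.00213).

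The remaining rows carried little signal. Psmb11, the thymus form, was at 0 except for 0.0127 FPKM in KO replicate 3. Psmb5-ps was at 0 throughout, and Psmb6-ps was at 0 except for 0.136 and 0.0963 FPKM in KO replicates 2 and 3. Psmb7-ps2 was at 0.170, 0.194 and 0 FPKM in the WT libraries and 0.242, 0.206 and 0.166 in those of KO. Psmc3ip was at 10.7 ± 1.06 and 12.0 ± 0.92 FPKM (adjusted p = 0.176). In the annotation 10 of the 44 genes overlap another coding gene. Strand is not mentioned in the labels or notes, so overlapping genes could share fragments.

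A list of 46 companion genes of the pathway, outside the name rule, had 37 genes with a row, all tested. Over all tested rows 65.2% passed, 28.5% as higher and 36.7% as lower. The counts of calls in its parts do not by themselves set these genes apart. Of the subunit and assembly genes, both tested members fell. Shfm1, which encodes the small lid subunit SEM1, was at 118, 120 and 121 FPKM in the WT libraries and 62.3, 64.4 and 61.4 in those of KO, 1.91-fold lower (log2 fold change -0.93, SE 0.03, adjusted p = 8.15e-06). Pomp, the maturation factor of the core, was at 101, 105 and 110 FPKM in the WT libraries and 80.6, 81.9 and 89.4 in those of KO (log2 fold change -0.33, SE 0.06, adjusted p = 0.0029). Neither overlapped; Pomp lost its call under quantile normalization (adjusted p = 0.111). Adrm1 and the regulator Nfe2l1 were not analysed here.

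Of the 6 tested genes that control proteasome transcription, 5 fell and 1 rose. Ngly1, the glycanase that activates NFE2L1, was at 5.30, 5.19 and 4.30 FPKM in the WT libraries and 13.1, 12.2 and 14.1 in those of KO (log2 fold change 1.33, SE 0.10, adjusted p = 8.29e-05). Ddi2, the protease that cleaves NFE2L1, was at 13.0, 17.6 and 17.2 FPKM in the WT libraries and 6.80, 6.97 and 8.001 in those of KO (log2 fold change -1.07, SE 0.13, adjusted p = 0.000712), in a row shared with Rsc1a1. These genes act in 1 pathway and moved in opposite directions. Of the small MAF partners, Mafk fell 2.13-fold (14.1 ± 0.55 to 6.65 ± 0.68 FPKM). Maff was at 22.6, 23.6 and 18.7 FPKM in the WT libraries and 0, 0 and 11.1 in those of KO (adjusted p = 0.0343), a call lost when any 1 WT replicate, or KO replicate 1 or 2, was left out (adjusted p between 0.0799 and 0.102) and with no filter (adjusted p = 0.0537). Mafg, in a row shared with Sirt7, and Nfe2l2 fell as well, and both lost their calls under quantile normalization, Nfe2l2 also under median-ratio scaling (adjusted p between 0.0804 and 0.7). Mafg lost its call when WT replicate 1 or 2 or KO replicate 1 or 2 was left out (adjusted p between 0.0716 and 0.0796) or with the replicate block (adjusted p = 0.0664), and Nfe2l2 when WT replicate 1, 2 or 3 or KO replicate 2 was left out (adjusted p between 0.0545 and 0.0797).

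Among enzymes and receptors that bind the proteasome, 4 of 13 rose and 4 fell. The shuttle receptor gene Ubqln2 was at 20.1, 18.2 and 21.1 FPKM in the WT libraries and 47.4, 46.3 and 44.7 in those of KO, 2.33-fold higher (log2 fold change 1.20, SE 0.06, adjusted p = 2.55e-05). Its relative Ubqln4 rose 1.66-fold, while Ubqln1 fell 1.26-fold. Akirin2, which carries proteasomes into the nucleus, was at 55.2, 56.2 and 75.8 FPKM in the WT libraries and 39.7, 36.1 and 42.3 in those of KO (log2 fold change -0.65, SE 0.14, adjusted p = 0.00733). Zfand5 rose 1.69-fold and Zfand2a 1.28-fold; the deubiquitinase gene Usp14 fell 1.30-fold. In ubiquitin supply and unfolding, 2 of 6 rose and 2 fell. Sqstm1, a ubiquitin receptor of autophagy, was at 184, 175 and 183 FPKM in the WT libraries and 370, 327 and 359 in those of KO (log2 fold change 0.96, SE 0.06, adjusted p = 3.73e-05). Nploc4, a cofactor of the unfoldase VCP, was at 30.7, 29.4 and 30.7 FPKM in the WT libraries and 25.2, 24.7 and 27.4 in those of KO (log2 fold change -0.23, SE 0.05, adjusted p = 0.00971), a call lost under quantile normalization (adjusted p = 0.171). The ubiquitin gene Ubb rose 1.29-fold and Rps27a fell 1.13-fold, a call lost under quantile normalization (adjusted p = 0.208).

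Interferon control and antigen processing genes were 4 higher and 4 lower of 10. Irf1, a direct inducer of Psmb9, was at 30.0, 28.6 and 26.8 FPKM in the WT libraries and 43.3, 40.0 and 35.4 in those of KO (log2 fold change 0.46, SE 0.09, adjusted p = 0.00403). It was higher in every KO library than in any WT library, the opposite direction to Psmb8 and Psmb9. On the log2(FPKM + 0.5) scale the receptor gene Ifngr1 held the largest rise of this group, from 13.0, 12.6 and 12.9 FPKM to 35.6, 32.9 and 31.5 (log2 fold change 1.34, SE 0.05, adjusted p = 1.15e-05). As a ratio of mean FPKM, Ifngr1 rose 2.59-fold, Nlrc5 2.71-fold and B2m 2.21-fold, while Stat2 fell 1.48-fold. Irf9, in a row shared with Rnf31, and Ifngr2 did not pass. Irf9 was called higher without WT replicate 1 (adjusted p = 0.00521) and under quantile normalization (adjusted p = 0.0389). Ifngr2 was called higher without KO replicate 3 (adjusted p = 0.00196).

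The peptide transporter genes Tap1 and Tap2 are neighbours of Psmb9 and Psmb8 on chromosome 17 and were lower in KO. Tap1 (34187553 to 34197225, plus strand), whose annotation overlaps that of Psmb9 at their starts, was at 22.3, 20.9 and 21.9 FPKM in the WT libraries and 18.0, 11.9 and 16.8 in those of KO (log2 fold change -0.49, SE 0.15, adjusted p = 0.0319). Leaving out WT replicate 1, 2 or 3 ended its call (adjusted p between 0.0667 and 0.0883), as did both scalings (adjusted p = 0.0524 and 0.0872). Tap2 was at 36.6, 33.9 and 34.7 FPKM in the WT libraries and 22.7, 19.9 and 19.3 in those of KO (log2 fold change -0.76, SE 0.07, adjusted p = 0.00025). KO replicate 2 had the lowest Tap1 level and was the KO library with a value for Psmb9. Erap1, the peptide-trimming enzyme, was at 9.94, 10.5 and 9.54 FPKM in WT and listed at 0 in all KO libraries. Erap1 overlaps the coding gene Cast in the annotation, and an exact 0 is not a safe zero in this table.

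**Figure D4:**
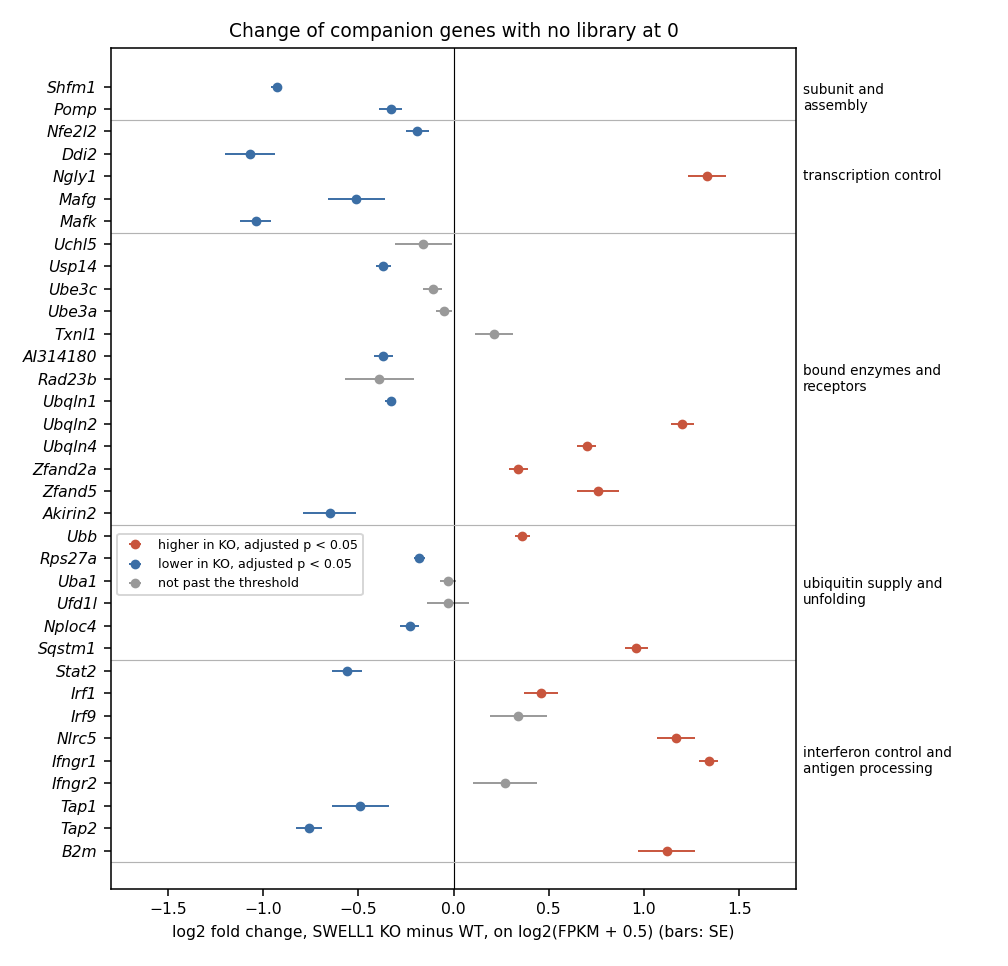
Change of the companion genes with no library at 0, as the log2 fold change of SWELL1 KO minus WT on log2(FPKM + 0.5), with its SE and n = 3 libraries per group; colours give the call. Irf1, Nlrc5, Ifngr1 and B2m stand to the right, and Tap1 and Tap2 to the left.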

How the data were processed

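The authors deposited 1 table of 31097 rows with an FPKM value per library; the unit is inferred, since no header names it. Per the submitters' processing notes, TopHat and Cufflinks 2.02 were used on GRCm38; no settings or annotation release are given there. Values were used as deposited. The test was limma 3.58.1 (R 4.3.3) on log2(FPKM + 0.5) for every row whose mean reached 0.5 FPKM (trend, two-sided, Benjamini-Hochberg over 10515 rows, threshold 0.05), KO against WT, 3 libraries each; this scale understates the change of low genes. The steps were tested on simulated data with normally distributed noise and far fewer changed rows than were called here. That does not check calls resting on libraries at 0. Depth was estimated from the lowest values of genes with 1 transcript of at least 2500 bases. Within groups, 29.7% to 36.4% of rows at 10 FPKM or more differed by over 10%, so no column was a copy of another; whether libraries were technical repeats was not tested. Positions are from GENCODE M21 (GRCm38). The members and lists were chosen with earlier results of these data known. Values in every library are given for the catalytic genes, proteasome genes with a library at 0 or a shared row, the 2 largest and the smallest changes of each role, and the largest rise and fall of each companion list with Pomp, Irf1, Tap1 and Tap2; 2 genes of the companion list are not reported here. Alternatives were other pseudocounts, no filter, 2 scalings, a robust fit, a replicate block and leaving out each library. Python 3.11.15, pandas 2.3.3, numpy 2.4.6 and matplotlib 3.10.9 were used.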

Additional observations from a re-analysis of the deposited data

How the results depend on the processing

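The number of rows called stayed within 1.5 times of 6860 in all alternatives. The count of proteasome genes lower in KO fell from 17 to 8 under quantile normalization. The median log2 fold change of the tested proteasome genes was -0.01 and lay at 0.0 with no filter, 0.05 under median-ratio scaling, 0.20 under quantile normalization and between -0.04 and 0.01 when 1 library was left out; the cause was not tested. The median of all rows was -0.07 and moved to -0.01 under median-ratio scaling. The log2 fold change took the other sign for 9 proteasome genes and 4 companion genes. Under quantile normalization these were Psma4 (0.21), Psmb5 (0.15), Psmb10 (0.06), Psmc2 (0.01), Psmc4 (0.07), Psmd2 (0.04), Psmd7 (0.10), Psmd12 (0.19), Psme2 (0.18), Uba1 (0.18), Ube3a (0.05), Ube3c (0.0) and Ufd1l (0.12). Under median-ratio scaling they were Psma4 (0.04), Psmb10 (0.03), Psmd12 (0.07), Psme2 (0.01), Ube3a (0.02), Uba1 (0.03) and Ufd1l (0.04). With 1 library left out the values ran over both signs for Psmb10 (-0.16 to 0.20), Psmd12 (-0.05 to 0.05), Psme2 (-0.13 to 0.01) and Ufd1l (-0.09 to 0.09). The immunoproteasome share of the catalytic FPKM differed by -9.37 percentage points (KO minus WT). It was -1.3 points for Psmb10 over Psmb10 + Psmb7 and -2.57 as a difference of mean log2(FPKM + 0.5). The log2 value rests mainly on Psmb8 and Psmb9, whose libraries at 0 make it depend on the pseudocount. Deviations of libraries with the same replicate number were not correlated (r from -0.09 to 0.01). A shared culture or preparation could still leave no such correlation, and the labels do not say what the numbers mark. With the replicate block 6534 rows passed, and 13 proteasome genes were higher and 16 lower. Of 42 tested proteasome genes, 19 kept direction and side of the threshold in all alternatives; the share of all rows that did was not computed. Depth is an estimate, and FPKM give no counting error.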
